A study of Homo sapiens with 18 samples.

Results

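The genes described here are 40 genes of G2 phase and mitosis, the steps of the cell cycle in which a cell with replicated DNA prepares to divide and divides. They were taken by symbol from a fixed list of mitotic genes, with no threshold on their values, and all 40 were found among the 63241 genes of the deposited table. The list was chosen with earlier results of these data known. All 40 are annotated as protein coding, their loci are given below as the table has them (GRCh38), and all 40 had enough counts to be tested. They fall into 6 groups by role: 6 cyclins, CDK1 and CDC25 phosphatases; 7 mitotic kinases and spindle activators; 7 genes of the spindle checkpoint and of anaphase control; 6 kinetochore and centromere genes; 12 genes of motors, spindle and cytokinesis; and the transcription factor FOXM1 with the proliferation marker MKI67.

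RNA from cultured prostate cancer cells was measured by poly(A) RNA-seq in 18 libraries, 3 in each of 6 groups. LNCaP, an androgen-responsive line that carries the androgen receptor and the surface antigen PSMA, was left untreated or treated for 24 h with genistein at 10 or 20 µM or with baicalein at 10 or 20 µM. PC-3, an androgen-independent line that lacks p53, was measured untreated, so no effect of either compound was measured in it. The compounds are isomeric plant polyphenols, genistein of the isoflavones and baicalein of the flavones, which carry the phenyl ring at another position of the core and their hydroxyl groups on other carbons. The labels call the control groups untreated, whereas the treatment protocol speaks of a DMSO vehicle, so it is not known which of these the controls received. The series concerns radiosensitizers, and none of the 18 libraries is labelled as irradiated. The sources do not say that the 3 libraries of a group came from separate cultures, so the p-values cover only library-to-library spread, and that spread may be technical.

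Entry into mitosis is driven by CDK1 bound to cyclin B, which CDC25 phosphatases switch on and WEE1 holds off. Polo and Aurora kinases then build the spindle, kinetochores tie chromosomes to it, and the checkpoint proteins BUB1, BUBR1 and MAD2 hold back the anaphase-promoting complex, with its activator CDC20, until every chromosome is attached. Most of these genes are transcribed late in the cycle through the MuvB complex with B-MYB and FOXM1, and are kept low in resting or p53-arrested cells by the DREAM complex, which binds an element called the cell cycle genes homology region (CHR), while the factor NF-Y binds nearby CCAAT boxes.

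The 18 libraries held 10013567 to 18445711 assigned counts each. Values are CPM, counts scaled to a common library total after TMM normalization, and a gene is said to have risen or fallen, or to be called, where edgeR's quasi-likelihood test gave a Benjamini-Hochberg adjusted p under 0.05 over all genes tested. The 8 luminal markers of LNCaP summed to 601.9 to 4047 CPM in LNCaP libraries and to 89.78 to 98.16 CPM in PC-3, and the 6 PC-3 markers to 2659 to 2925 CPM in PC-3 and to 6.296 to 22.99 CPM in LNCaP, so the line labels held. VIM, at 1650 to 1945 CPM in PC-3, gave most of the latter sum, while KRT5 (0 CPM) and TGFBI (0 to 0.334 CPM) were all but absent there. Mitochondrially encoded genes took 4.65 to 5.356% of the counts of untreated LNCaP and 10.55 to 14.48% with baicalein at 20 µM. Several libraries stood apart from the other libraries of their group in genes of low GC content. Across the 40 genes, a library's deviation from its group mean correlated with a gene's GC content at a Pearson r between -0.754 and 0.805, against -0.415 to 0.491 over 16136 genes, and points share library, depth and base composition. The median deviation of the 20 members with the lowest GC content (under 42.9%) was -0.482 on the log2 scale in the first library with baicalein at 10 µM, -0.313 in the first with genistein at 20 µM and -0.569 in the second with baicalein at 20 µM. It was 0.39 in the third library with baicalein at 10 µM and 0.505 in the first at 20 µM. Counts below are therefore also given without the 3 libraries in which it was lowest, which is a choice made after their values were seen.

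Because the members are known as a group that shares promoter elements, the stretches before the start sites are shown first. A RefSeq promoter window, 250 bases before to 50 bases after the start on GRCh38.p14, was found for 32 of the 40 genes and for 27305 genes in all. The CCAAT box (CCAAT, or ATTGG on the other strand) was in 23 of the 32 windows, or 71.9%, against 35.7% of all windows. The CHR, searched as TTTGAA or TTCGAA on both strands (TTCAAA is the other strand of the first, and the second reads the same on both), was likewise in 23, or 71.9%, against 16.6% of all. Both were present in 18 windows, 56.2% against 6.6%. The 250 bases before the start alone held the CHR in 16 of the 32 members, or 50%, against 14.6% of all, so the share depends on how far the window reaches. The 5 stretches of 130 bases shown end at the base before the start and are printed 5′ to 3′ on the gene's strand, with the matches in capitals. They show 4 genes that fell with baicalein at 20 µM and hold both elements, and PLK4, which was not called and holds neither. They were picked to show the elements and do not stand for a relation with the fall: of the 6 members with a window that did not fall, 4 (CENPA, KIF11, KIF23 and PRC1) hold both before the start, against 10 of the 26 that fell. The stretches lie at chrX:70289974-70290103 on the plus strand (KIF4A), chr10:128126424-128126553 on the minus strand (MKI67), chr15:59105016-59105145 on the plus strand (CCNB2), chr14:55191586-55191715 on the minus strand (DLGAP5) and chr4:127880763-127880892 on the plus strand (PLK4).
KIF4A: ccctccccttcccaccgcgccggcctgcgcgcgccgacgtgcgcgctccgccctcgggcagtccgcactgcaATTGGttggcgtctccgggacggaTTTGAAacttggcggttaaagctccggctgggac
MKI67: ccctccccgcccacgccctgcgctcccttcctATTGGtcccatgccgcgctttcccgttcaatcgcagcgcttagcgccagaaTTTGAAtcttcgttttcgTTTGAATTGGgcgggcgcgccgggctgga
CCNB2: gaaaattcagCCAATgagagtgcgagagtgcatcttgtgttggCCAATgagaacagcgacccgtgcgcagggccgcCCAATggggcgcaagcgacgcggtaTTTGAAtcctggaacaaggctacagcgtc
DLGAP5: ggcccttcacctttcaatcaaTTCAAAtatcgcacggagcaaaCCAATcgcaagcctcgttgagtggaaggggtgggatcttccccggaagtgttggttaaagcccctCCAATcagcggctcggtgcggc
PLK4: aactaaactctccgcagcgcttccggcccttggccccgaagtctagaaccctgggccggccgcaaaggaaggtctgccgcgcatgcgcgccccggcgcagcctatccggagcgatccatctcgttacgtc
In CCNB2, 3 CCAAT boxes precede the CHR. In MKI67 the last CHR runs into a reversed CCAAT box, with which it shares 1 base. A match describes these letters only and does not show that a factor binds there. Before the start, 14 members held both elements, 9 the CCAAT box alone, 2 the CHR alone (ANLN and BUB1B) and 7 neither.

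In untreated LNCaP, the members' levels per length of exon spanned from CDK1 at 40.2 ± 7.33 CPM per kb (SD, n = 3) to ASPM at 1.19 ± 0.274 CPM per kb. Next below CDK1 came CCNB1 at 21.5 ± 1.18, BUB3 at 19.99 ± 2.98 and UBE2C at 16.7 ± 0.858 CPM per kb. CCNB1 and BUB3 did not differ beyond their spread, whereas CDK1 stood above all the others. With baicalein at 20 µM the order was another one: BUB3 led at 33.5 ± 8.51 CPM per kb, followed by CCNB1 at 11.5 ± 0.634 and CDC25B at 9.46 ± 1.59, and KNL1 (0.256 ± 0.0869) and KIF4A (0.278 ± 0.0681) were lowest. In PC-3 the highest were UBE2C at 145 ± 9.25 and CDK1 at 133 ± 22.5 CPM per kb, and ASPM was again lowest at 1.19 ± 0.24.

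Summed over the 40 genes, untreated LNCaP held 1205 ± 81.12 CPM (SD, n = 3). The sum was 922.2 ± 61.91 CPM with genistein at 10 µM, 1227 ± 228 with baicalein at 10 µM and 1057 ± 132.4 with genistein at 20 µM. Baicalein at 20 µM left 821.8, 532 and 712.7 CPM in its 3 libraries, all below every untreated library, and the mean was 57.15% of the untreated one. PC-3 held 4170 ± 395 CPM, or 345.9% of untreated LNCaP. Without TMM scaling these 2 shares were 46.22% and 284.3%.

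**Figure D1:**
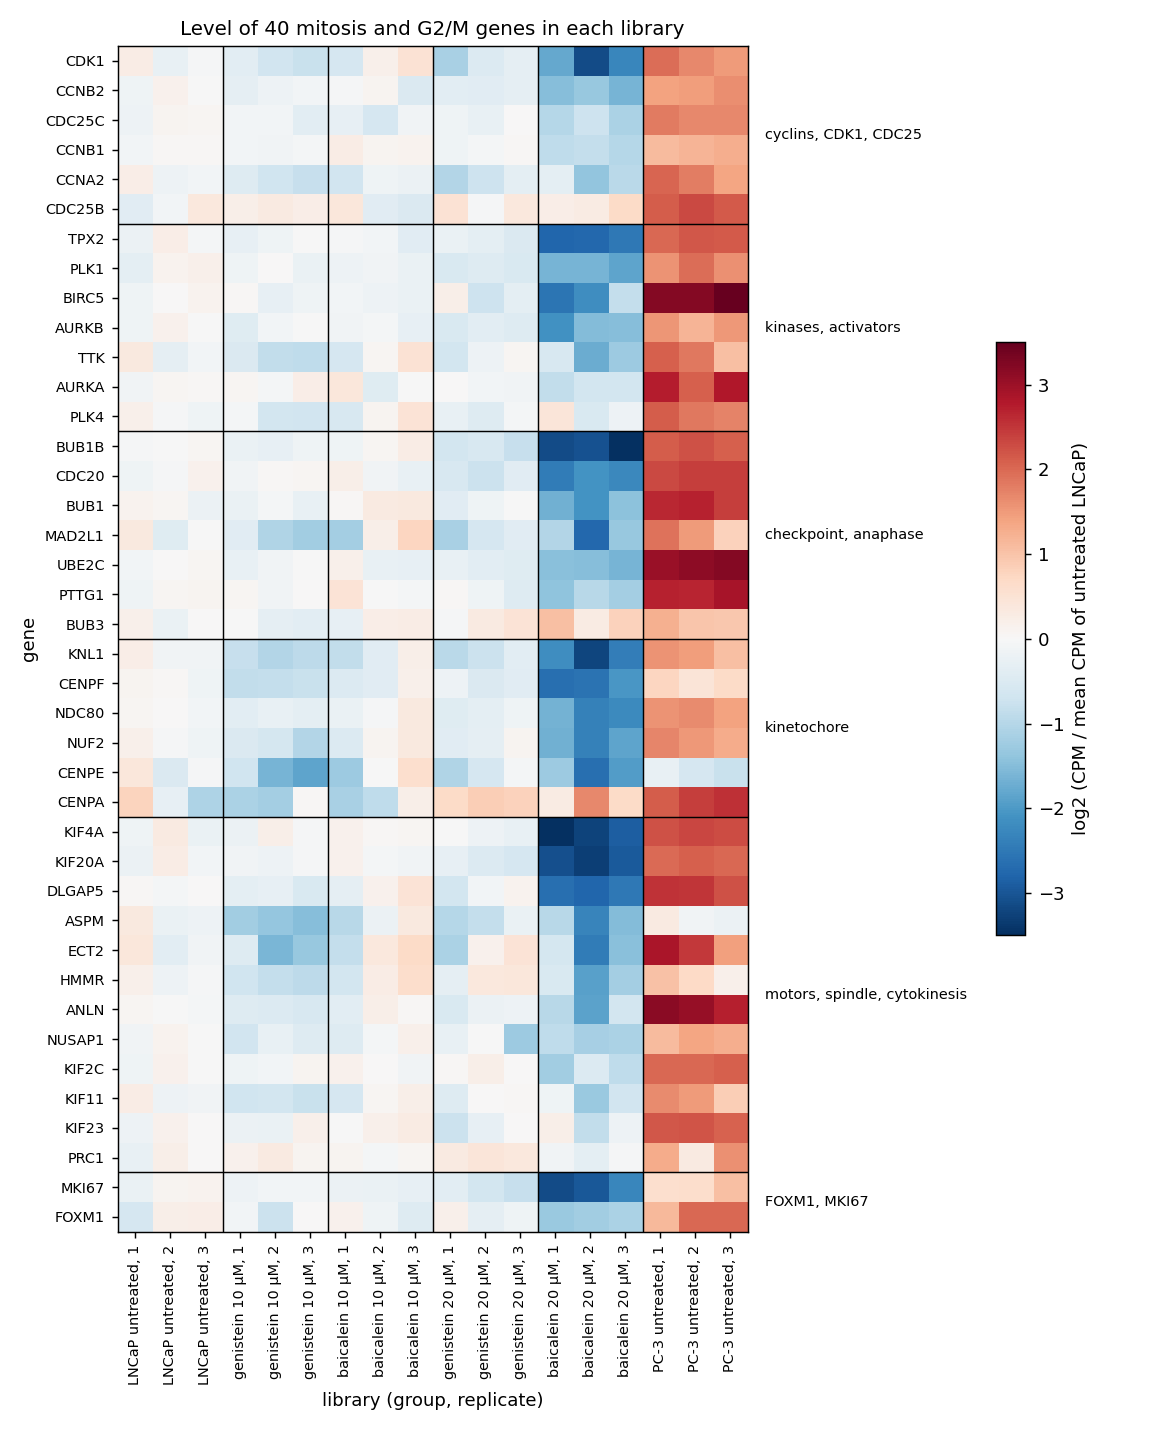
Colour gives each gene's log2 CPM in each of the 18 libraries minus its mean over the 3 untreated LNCaP libraries, with genes down the side by role and libraries across by group. The columns of baicalein at 20 µM are low for most genes, BUB3 being an exception, and the PC-3 columns are high for all genes but ASPM and CENPE.

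Baicalein at 20 µM lowered 33 of the 40 genes against untreated LNCaP and raised 1, BUB3, by edgeR's quasi-likelihood test; 27.8% of the 16985 genes tested were called lower and 29.4% higher, 57.2% in all. The members' median log2 fold change was -1.49, against 0.04 over all genes tested, and the 33 genes called lower also had all 3 treated libraries below all 3 untreated ones, as had 30.4% of all genes; 30.5% were wholly above, BUB3 among the members. In bulk libraries such as these, fewer cells in G2 or mitosis and less RNA of these genes per cell cannot be told apart. Without the 3 libraries that stood apart the counts were again 33 lower and 1 higher, with a median of -1.28. Of all 17450 genes, 5151 were then lower and 5104 higher. The luminal markers of LNCaP fell as well, 8 of 8, from 3738 to 4047 CPM summed in the untreated libraries to 601.9 to 716.5 CPM. The mitochondrial share was higher in the libraries with baicalein at 20 µM. With mitochondrially encoded genes left out 34 members were called lower and 1 higher, where 5007 of all 16807 genes were lower and 4667 higher. The part of the marker genes' change in that of the members was not tested.

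Among the cyclins, CDK1 and the CDC25 phosphatases, 5 of 6 fell, with a median of -0.91. CDK1 (ENSG00000170312, chr10:60778331-60794852), the kinase that drives entry into mitosis, was at 189, 131 and 155 CPM in the untreated libraries and at 45.5, 18.1 and 32.5 CPM with baicalein at 20 µM (log2 fold change -2.31 ± 0.35 SE, adjusted p = 0.000112). The groups were far apart, and the second treated library was the lowest. CCNB1 (ENSG00000134057, chr5:69167135-69178245), its cyclin B partner, went from 51.5, 56.9 and 56.5 to 29.9, 30.8 and 27.6 CPM (log2 fold change -0.90 ± 0.09 SE, adjusted p = 2.38e-06), with a narrow spread in both groups and a smaller fall than CDK1. CCNB2, the other B cyclin measured, changed by -1.47, and CCNA2, the A cyclin of S and G2 phase, by -0.82 (adjusted p = 0.0138) on the log2 scale. CDC25C, a phosphatase that activates CDK1 at mitotic entry, changed by -0.92. The member of this group that was not called was CDC25B (ENSG00000101224, chr20:3786772-3806121), a phosphatase that starts CDK1 activation in G2. It was at 23.5, 29.2 and 39.98 CPM untreated and at 36.3, 37.4 and 48.7 CPM treated, with overlapping libraries and a log2 fold change of 0.40 (95% interval -0.13 to 0.93).

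Of the 7 mitotic kinases and spindle activators, 6 fell, with a median of -1.68. TPX2, which activates Aurora A on spindle microtubules, went from 35.4, 48.1 and 39.2 to 5.99, 6.08 and 7.17 CPM and had the largest fall of this group (log2 fold change -2.67 ± 0.15 SE, adjusted p = 2.17e-08). PLK1 (ENSG00000166851, chr16:23677656-23690367), the polo kinase of mitotic entry and spindle assembly, was at 12.7, 17.5 and 18 CPM untreated and at 5.22, 5.17 and 4.43 CPM treated (log2 fold change -1.70 ± 0.14 SE, adjusted p = 5.97e-07). Every treated library of both genes lay far under every untreated one. AURKB (ENSG00000178999, chr17:8204733-8210600), the kinase that corrects wrong attachments, fell from 8.36, 10.2 and 9.13 to 2.13, 3.20 and 3.27 CPM (log2 fold change -1.68 ± 0.17 SE, adjusted p = 3.34e-06). BIRC5 (ENSG00000089685, chr17:78214186-78225636), survivin, which sits with Aurora B in the chromosomal passenger complex, went from 8.72, 9.84 and 10.5 to 1.64, 2.13 and 5.38 CPM (log2 fold change -1.68 ± 0.34 SE, adjusted p = 0.00103), the third treated library being the closest to the untreated range. AURKA (ENSG00000087586, chr20:56369389-56392337), the centrosome and spindle-pole kinase, fell least of those called, from 15.8, 17.9 and 17.5 to 9.47, 11 and 10.9 CPM (log2 fold change -0.71 ± 0.17 SE, adjusted p = 0.0031). TTK, the kinase that starts the checkpoint, changed by -1.11 (adjusted p = 0.0119). PLK4, which starts centriole duplication and acts before mitosis, was at 8.93, 7.58 and 7.01 CPM untreated and 10.5, 5.42 and 6.96 CPM treated; the groups overlapped and the log2 fold change was -0.04 (95% interval -0.65 to 0.56).

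The 7 genes of the spindle checkpoint and of anaphase control held the largest fall of all 40 and the 1 rise. BUB1B, which encodes the checkpoint kinase BUBR1, went from 17, 17.5 and 18.3 to 2.03, 2.13 and 1.27 CPM, 9.60-fold lower (log2 fold change -3.26 ± 0.17 SE, adjusted p = 1.4e-08). CDC20 (ENSG00000117399, chr1:43358981-43363203), the activator of the anaphase-promoting complex, went from 19, 20.5 and 23.4 to 3.86, 4.93 and 4.43 CPM (log2 fold change -2.25 ± 0.16 SE, adjusted p = 1.31e-07). Both were low in every treated library. BUB1 (ENSG00000169679, chr2:110637528-110678063), the kinase that recruits checkpoint proteins to kinetochores, was at 14.6, 13.9 and 11.5 CPM untreated and 4.15, 3.12 and 4.96 CPM treated (log2 fold change -1.71 ± 0.18 SE, adjusted p = 3.51e-06). UBE2C (ENSG00000175063, chr20:45812576-45816957), the ubiquitin-conjugating enzyme that works with the anaphase-promoting complex, went from 20.2, 21.7 and 22.4 to 7.83, 7.55 and 6.96 CPM (log2 fold change -1.52 ± 0.13 SE, adjusted p = 9.61e-07). PTTG1 (ENSG00000164611, chr5:160421855-160428739), securin, which inhibits separase until anaphase, fell from 15.7, 18.3 and 18.7 to 6.67, 8.95 and 7.70 CPM (log2 fold change -1.17 ± 0.18 SE, adjusted p = 9.23e-05). MAD2L1 (ENSG00000164109, chr4:120055623-120066858), which encodes the checkpoint protein MAD2, spread more within both groups than the others, at 93.6, 55.3 and 73.3 CPM untreated and 36.7, 11 and 29.5 CPM treated. Its groups still did not overlap (log2 fold change -1.53 ± 0.49 SE, adjusted p = 0.0173).

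BUB3 (ENSG00000154473, chr10:123154402-123170467), the adaptor that carries BUB1 and BUBR1 to kinetochores, moved the other way. It was at 189, 140.1 and 168 CPM in untreated LNCaP and at 343, 203 and 289 CPM with baicalein at 20 µM (log2 fold change 0.75 ± 0.22 SE, adjusted p = 0.00982). All treated libraries lay above all untreated ones, but the closest were 203 and 189 CPM. The rise was not called without TMM scaling (log2 fold change 0.44, adjusted p = 0.054) or without the second untreated library (0.61, adjusted p = 0.0554). Because BUB3 carries many more reads than the other 6 genes, the summed CPM of this role group was 329.6 ± 82.77 treated against 330.9 ± 41.23 untreated although 6 of its 7 genes fell.

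Of the 6 kinetochore and centromere genes 5 fell, with a median of -1.99, and their summed level went from 102.8 ± 14.95 to 31.59 ± 1.695 CPM. KNL1 (ENSG00000137812, chr15:40594020-40664342), the outer kinetochore scaffold on which BUB proteins load, was at 17.8, 13.9 and 14.1 CPM untreated and 3.38, 1.64 and 2.85 CPM treated (log2 fold change -2.55 ± 0.30 SE, adjusted p = 1.01e-05). CENPF (ENSG00000117724, chr1:214603185-214664574), a large kinetochore protein made in G2, went from 26.3, 25.3 and 22 to 3.96, 4.11 and 6.01 CPM (log2 fold change -2.39 ± 0.20 SE, adjusted p = 5.95e-07). Neither gene's groups came near each other. CENPE (ENSG00000138778, chr4:103105349-103198445), the kinetochore motor that brings chromosomes to the spindle's equator, fell from 28.6, 15.5 and 21.4 to 8.98, 3.53 and 5.59 CPM with a wider spread (log2 fold change -1.86 ± 0.49 SE, adjusted p = 0.00594). NDC80 and NUF2, partners in the complex that grips microtubules, changed by -2.04 and -1.94 on the log2 scale. CENPA, the centromeric histone, was not called. It was at 7.63, 3.67 and 2.13 CPM untreated and 5.51, 14.5 and 7.07 CPM treated, with overlapping libraries and a log2 fold change of 1.01 (95% interval -0.08 to 2.09). Its locus spans SLC35F6 on the same strand, a gene with more counts than CENPA, so its value is uncertain.

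The 12 genes of motors, spindle and cytokinesis gave 9 falls and a median of -1.09. KIF4A, a chromosome-bound kinesin that also shapes the midzone of the spindle, went from 10.5, 14.5 and 9.94 to 0.966, 1.23 and 1.58 CPM, 9.23-fold lower (log2 fold change -3.21 ± 0.21 SE, adjusted p = 5.86e-08). KIF20A (ENSG00000112984, chr5:138178719-138187723), a kinesin of the midzone and of cytokinesis, went from 9.87, 13.6 and 10.6 to 1.35, 1.15 and 1.48 CPM, 8.56-fold lower (log2 fold change -3.10 ± 0.18 SE, adjusted p = 2.13e-08). With BUB1B these were the 3 largest falls of the 40. ASPM (ENSG00000066279, chr1:197084121-197146694), a spindle-pole protein, was at 16.4, 11.1 and 11.3 CPM untreated and 6.57, 2.63 and 4.53 CPM treated (log2 fold change -1.50 ± 0.36 SE, adjusted p = 0.00325). DLGAP5, a spindle-stabilizing protein, changed by -2.64, the cytokinesis scaffold ANLN by -1.08, the microtubule-binding proteins HMMR and NUSAP1 by -1.11 and -1.05, and the microtubule-depolymerizing kinesin KIF2C by -0.83 on the log2 scale. ECT2, the exchange factor that starts the contractile ring, was just past the threshold (log2 fold change -1.32 ± 0.53 SE, adjusted p = 0.0497) and was not called in 9 of the alternative analyses. It lost its call without the second (-0.97, adjusted p = 0.157) or the third treated library (-1.25, 0.12) and without the first (-1.07, 0.144), the second (-1.51, 0.0508) or the third untreated one (-1.41, 0.0687). The midzone kinesin KIF23 (-0.22 (95% interval -0.75 to 0.32)), the midzone bundler PRC1 (-0.15 (95% interval -0.42 to 0.11)) and the bipolar spindle kinesin KIF11 (-0.64 (95% interval -1.22 to -0.06)) were not called. KIF23 and PRC1 act at the same midzone as KIF4A and KIF20A, which thus held both the steepest falls and members without a called change.

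FOXM1 (ENSG00000111206, chr12:2857680-2877174), the forkhead transcription factor of late cell cycle genes, went from 20.9, 36.4 and 36.9 to 12.8, 13.6 and 14.5 CPM (log2 fold change -1.21 ± 0.25 SE, adjusted p = 0.00119). MKI67 (ENSG00000148773, chr10:128096659-128126423), which encodes the proliferation marker Ki-67, went from 22.3, 28.1 and 28.7 to 3.00, 3.37 and 5.38 CPM, 6.76-fold lower (log2 fold change -2.76 ± 0.20 SE, adjusted p = 1.4e-07). Both were below the untreated range in every treated library, FOXM1 closer to it than MKI67.

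A few other calls with baicalein at 20 µM rested on 1 library. Without the second treated library, the one lowest in members of low GC content, CCNA2 (-0.60, adjusted p = 0.0551), HMMR (-0.82, 0.0553), MAD2L1 (-1.16, 0.0576) and TTK (-0.86, 0.0513) were still lower but not called. Without the first untreated library this held for CCNA2 (-0.69, 0.0535), MAD2L1 (-1.33, 0.0559) and TTK (-0.90, 0.05). KIF11, which just missed the threshold, was called lower in 7 alternatives, with values from -0.42 without the 3 libraries that stood apart (0.0495) to -0.96 without the first treated library (0.00896); DESeq2 (-0.70, 0.0338) and the fit with the GC and length trend removed (-0.88, 2.92e-05) were among them. CENPA was called higher without the first untreated one (1.64, 0.0196).

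Set beside the promoter elements, 10 of the 14 members with both elements before the start fell with baicalein at 20 µM (median -1.49), all 9 with the CCAAT box alone (median -1.53), both with the CHR alone, and 5 of the 7 with neither (median -0.92). KIF4A, MKI67, CCNB2 and DLGAP5, whose stretches are printed above, hold both and fell, as did ASPM (-1.50). CENPA (1.01), KIF11, KIF23 and PRC1 hold both too and were not called lower.

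**Figure D2:**
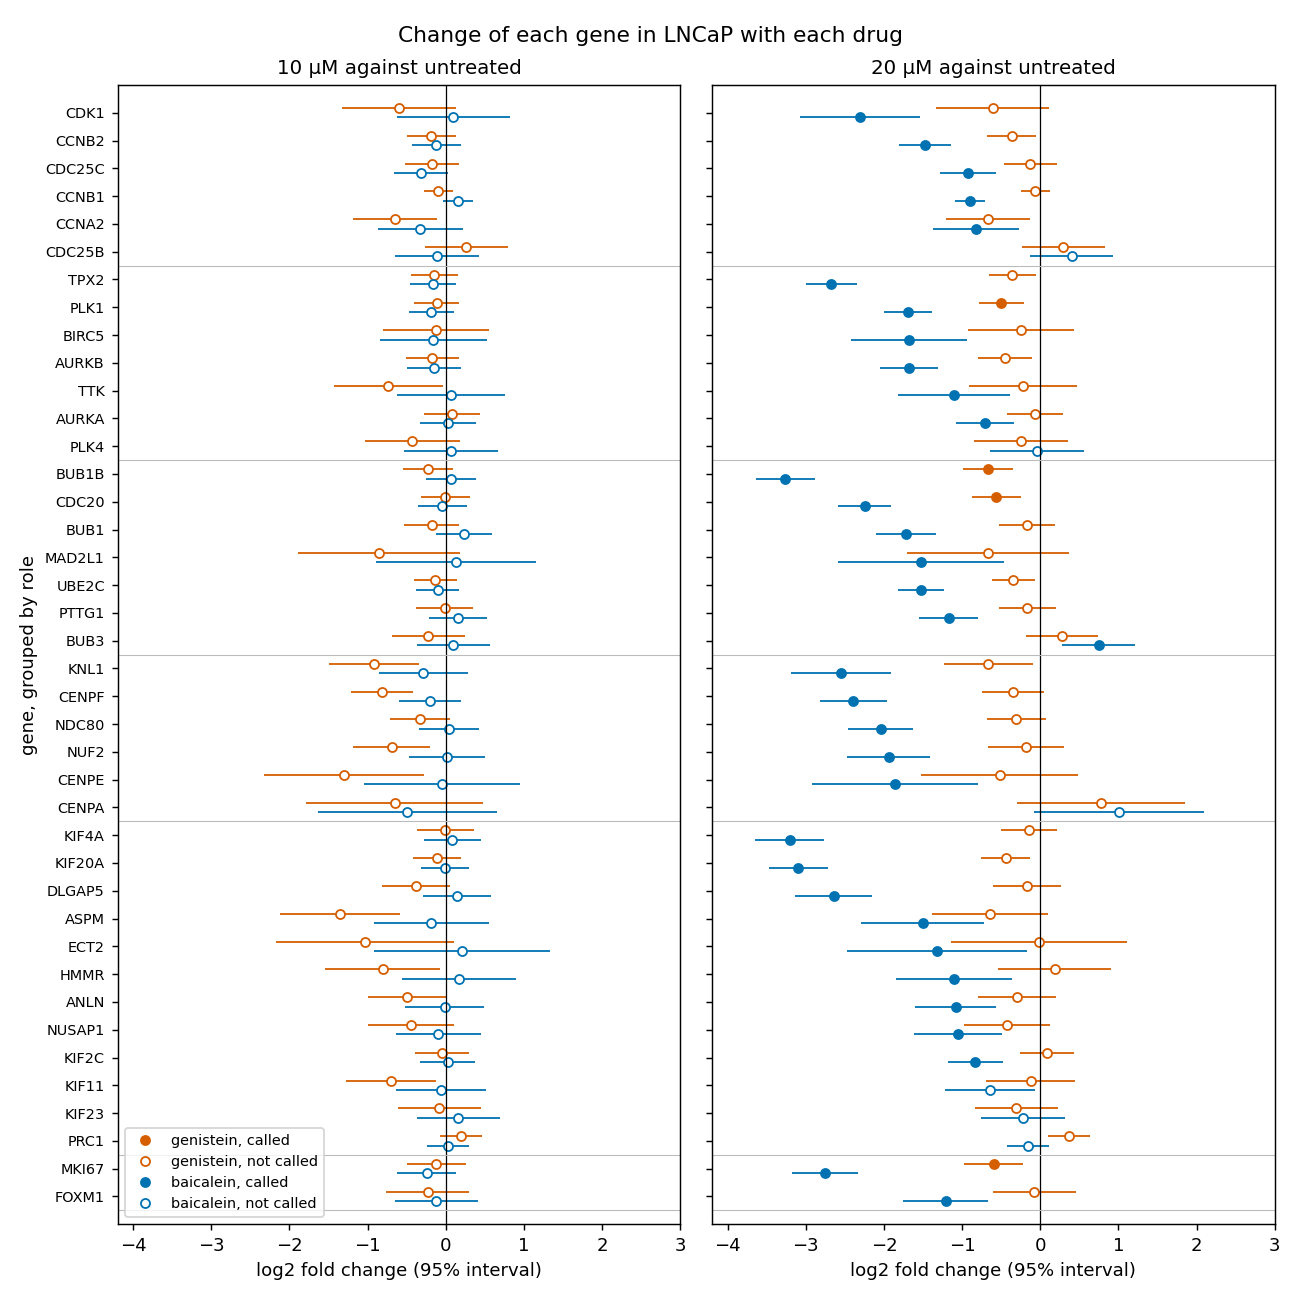
Points give the log2 fold change of each of the 40 genes against untreated LNCaP with 95% intervals from the edgeR fit, by treatment and dose, with genes ordered by role. Baicalein at 20 µM lies left of 0 for most genes and reaches -3.26 at BUB1B, whereas the other 3 treatments lie nearer to 0.

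Other genes of the pathway, from lists drawn up beside the 40, showed which parts of mitosis moved with them under baicalein at 20 µM. Of 28 other spindle and cytokinesis genes, 20 fell and 0 rose by edgeR's test (median -1.46; background 27.8% lower and 29.4% higher, as above). The citron kinase gene CIT changed by -2.70 and the chromokinesin gene KIF22 by -1.45 on the log2 scale. Of 27 other centromere and kinetochore genes, 16 fell and 2 rose (median -0.79). CENPN, which binds CENP-A nucleosomes, went from 239.7 ± 17.9 to 41.4 ± 8.12 CPM (log2 fold change -2.53), and SPC24, of the same complex as NDC80, changed by -3.02. The 2 that rose were CENPT (0.66) and CENPL (0.63). Of 14 other mitotic kinases and CDK1 regulators, 10 fell and 2 rose (median -0.78). INCENP, the scaffold on which Aurora B and survivin assemble, changed by -2.53 and the kinase gene PBK by -1.85. The 2 that rose were WEE1 and MASTL. WEE1, the kinase that inhibits CDK1, went from 29.5 ± 6.40 to 103 ± 37.6 CPM, a log2 fold change of 1.80 (adjusted p = 0.000261). MASTL, a kinase that protects mitotic phosphorylation, changed by 1.27.

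Condensin subunits were lower as well, whereas the 3 remaining lists held nearly as many rises as falls, or more. Of all genes tested, 27.8% were lower and 29.4% higher. The lists of the anaphase-promoting complex and of DREAM, MuvB and E2F regulators were near these shares. Of 18 other checkpoint and cohesion genes, 8 fell and 6 rose with baicalein at 20 µM (median -0.23); separase, ESPL1, changed by -2.24, KNTC1 by -1.46, MAD2L1BP, whose product helps to switch the checkpoint off, by 1.84 and the cohesin gene STAG1 by 0.99. Of 8 condensin subunits, 4 fell and 1 rose (median -0.93). Among those that fell were NCAPD3 (-1.77) and NCAPG2 (-1.75), and the one that rose was NCAPH2 (1.08). Of 17 genes of the anaphase-promoting complex and its partners, 4 fell and 6 rose (median 0.29), a list in which ANAPC5 changed by -1.37 and CDC26 by 1.36. Of 25 DREAM, MuvB and E2F regulators, 6 fell and 8 rose (median 0.17). MYBL2, which encodes B-MYB, went from 35.9 ± 0.753 to 9.83 ± 1.41 CPM, and E2F8, a repressor of the E2F family, changed by -2.63. CDKN1A, the p21 inhibitor of cyclin-dependent kinases that p53 induces, went from 164 ± 7.48 to 1148 ± 208 CPM, a log2 fold change of 2.81 (adjusted p = 1.02e-06), and NFYC, a subunit of NF-Y, changed by 1.24.

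Genistein at 20 µM lowered 4 of the 40 genes and raised 0 against untreated LNCaP. Of all genes, 8.12% were called lower and 8.31% higher (16.4% in all). With these settings the share of members called lower was close to the background, and the share called higher was below it. The members' median was -0.27 against 0.05 over all genes tested, and 34 of the 40 log2 fold changes were negative. All treated libraries lay below all untreated ones for 16 of the 40 members, a larger share than the background of 19%. They lay above for 1, a smaller share than the background of 21.9%. The 4 called lower were BUB1B, CDC20, MKI67 and PLK1. BUB1B was at 17, 17.5 and 18.3 CPM untreated and 11.2, 12 and 10.1 CPM treated (log2 fold change -0.66 ± 0.15 SE, adjusted p = 0.00933). CDC20 was at 19, 20.5 and 23.4 CPM untreated and 14.2, 12.6 and 15.9 CPM treated (log2 fold change -0.56 ± 0.14 SE, adjusted p = 0.0198). For both, all treated libraries lay below the untreated ones, with the closest pair a few CPM apart. MKI67 went from 22.3, 28.1 and 28.7 to 20.3, 16.9 and 15.2 CPM (log2 fold change -0.59 ± 0.17 SE, adjusted p = 0.0349), and PLK1 from 12.7, 17.5 and 18 to 11.2, 11.8 and 11.1 CPM (log2 fold change -0.50 ± 0.13 SE, adjusted p = 0.0236). For PLK1 the highest treated library, 11.8 CPM, was close to the lowest untreated one, 12.7 CPM. These calls were few and unsteady: 1 was made without the third untreated library or without the second genistein library, and 2 without the third genistein library. Without the 3 libraries that stood apart 6 were made, where 1861 of all 17450 genes were lower and 1426 higher. Removing a GC and length trend gave 13 members lower and 1 higher, where 1778 of all 16985 genes were lower and 2367 higher, so the members' share was then above the background. DESeq2 gave 9 members lower, and 1879 of the 19702 genes it tested.

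The other named members showed these values with genistein at 20 µM, none of them called. CDK1 was at 71.5, 113 and 126 CPM, below all untreated libraries (log2 fold change -0.61 (95% interval -1.33 to 0.12)), with the first library lowest. CCNB1 was at 49.2, 52.7 and 56.1 CPM, within or just under the untreated range. CDC25B was at 44.3, 29.96 and 39.7 CPM and reached above that range. Among the kinases, AURKA was at 17.1, 16.1 and 15.5 CPM and AURKB at 6.33, 7.13 and 6.72 CPM. AURKB's libraries were all below the untreated ones (adjusted p = 0.0713), AURKA's overlapped them. BIRC5 was at 11.1, 5.84 and 7.64 CPM, its first library above all untreated ones and the other two below. BUB1 was at 10.2, 12.1 and 13.2 CPM and BUB3 at 163, 208 and 233 CPM, both overlapping the untreated range. MAD2L1 was at 33.4, 49.3 and 56.7 CPM, its 2 lower libraries under that range. UBE2C was at 18, 16.7 and 15.9 CPM, all below the untreated libraries, and PTTG1 at 18.2, 16 and 12.9 CPM, overlapping them. At the kinetochore, CENPF was at 21.9, 17.1 and 18.8 CPM, CENPE at 10.4, 14.5 and 20.7 CPM and KNL1 at 7.90, 9.10 and 11.8 CPM. Of these KNL1 lay wholly below the untreated libraries, CENPF lay just below the lowest of them, and CENPE overlapped them. ASPM was at 6.51, 7.27 and 11.1 CPM, KIF20A at 9.37, 8.22 and 7.51 CPM and FOXM1 at 35.5, 25.5 and 28.5 CPM. KIF20A came closest to the threshold (adjusted p = 0.0549), and PRC1, at 0.37 (adjusted p = 0.0566), was the member that lay wholly above the untreated libraries.

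In the lists of other pathway genes, read against 8.12% of all genes lower and 8.31% higher, genistein at 20 µM gave 8 falls and 0 rises among 28 spindle and cytokinesis genes, 6 and 0 among 27 centromere and kinetochore genes, and 3 and 0 in each of the lists of checkpoint and cohesion genes (18), condensin subunits (8) and kinases and CDK1 regulators (14). KIF18B changed by -1.20, KIF22 by -0.53, CENPI by -1.19, CENPN by -0.76, ESPL1 by -1.12, KNTC1 by -0.77, NCAPD3 by -0.57, NCAPG2 by -0.42, INCENP by -0.95 and the phosphatase gene CDC25A by -0.56 on the log2 scale. The anaphase-promoting complex list held 4 rises and 1 fall (CDC26 0.59, ANAPC16 0.38, ANAPC1 -0.36), and the DREAM, MuvB and E2F list 2 rises and 4 falls. In the latter E2F8 changed by -1.27, E2F1 by -0.77 and NFYC by 0.62, and CDKN1A was at 282 ± 106 CPM, a change of 0.78 (adjusted p = 0.0392).

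At 10 µM no member was called with either compound. Genistein at 10 µM gave 0 calls by edgeR's quasi-likelihood test, where 0.112% of all genes were called in either direction. At an unadjusted p under 0.05, 9 members were lower (background 3.11%). DESeq2 called 2 members lower, and 71 of the 16843 genes it tested. The edgeR fit without the 3 libraries that stood apart called 1 lower, ASPM (log2 fold change -1.40, adjusted p = 0.05), and 40 of all 17450 genes. None of those 3 libraries belongs to this comparison, so its own libraries were unchanged. What changed was the fit they share with the others. With all libraries, the median was -0.23 against 0.03 over all genes tested, and 16 members lay wholly below the untreated libraries (background 10.2%). The 3 with the smallest p were CENPF (log2 fold change -0.82 ± 0.18 SE, adjusted p = 0.198), ASPM (log2 fold change -1.35 ± 0.35 SE, adjusted p = 0.298) and KNL1 (log2 fold change -0.92 ± 0.27 SE, adjusted p = 0.391). CENPF was at 13.6, 13.9 and 14.3 CPM, ASPM at 5.52, 5.06 and 4.59 CPM and KNL1 at 8.74, 7.48 and 8.02 CPM, all below the lowest untreated library. The differences followed GC content: the 20 members with the lowest GC content had a median of -0.67 and the other 20 one of -0.12, with a Pearson r of 0.726 over the 40 genes against 0.244 over all genes, which share the same libraries and base composition. With the GC and length trend removed, the members' median was -0.22, against -0.23 before. Then 1 member was called lower, where 35 of all 16985 genes were.

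Baicalein at 10 µM gave 0 calls by edgeR's test (background 0.4% in either direction), 0 by DESeq2 and 0 before adjustment at the same threshold, with a median of -0.01. A single member lay wholly above the untreated libraries (background 8.95%): CCNB1, at 65.2, 59 and 59.4 CPM. The smallest p-values were those of CDC25C (-0.32, adjusted p = 0.484), CCNB1 (0.16, adjusted p = 0.546) and BUB1 (0.23, adjusted p = 0.65). The spread within the group was wide for members of low GC content, the first library being the lowest and the third the highest for many. CDK1 was at 105, 178 and 224 CPM, MAD2L1 at 32.3, 85.3 and 126 CPM and CENPE at 9.03, 21.7 and 32.8 CPM. ASPM was at 6.55, 11.3 and 16.3 CPM, KNL1 at 8.41, 11.5 and 17.5 CPM and BUB3 at 136, 195 and 200.4 CPM. In each of these 6 genes the first library was the lowest and lay below every untreated library, and the third was the highest. CENPF, at 17.7, 18.5 and 27.5 CPM, and BUB1, at 13.6, 16.5 and 16.9 CPM, had the same order of libraries. CDC20 was at 24.2, 19.4 and 17.4 CPM, UBE2C at 24.3, 17.8 and 17.7 CPM and PTTG1 at 24.4, 17.4 and 16.7 CPM. In these 3 the first library was the highest instead, as it was for CDC25B at 40.4, 23.3 and 21.9 CPM, FOXM1 at 35.1, 28.5 and 23 CPM and AURKA at 22.4, 12.7 and 17 CPM. PLK1 was at 14.1, 14.6 and 13.7 CPM, AURKB at 8.41, 8.84 and 7.62 CPM and BIRC5 at 9.12, 8.58 and 8.26 CPM. KIF20A was at 12.6, 10.8 and 10.4 CPM and MKI67 at 22.9, 22.4 and 21.5 CPM. The libraries of these 5 were close together and near the untreated ones.

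With genistein at 10 µM the remaining named genes were as follows. CDK1 was at 122, 98.7 and 92.6 CPM, all below the untreated libraries, and CCNB1 at 51.5, 50.5 and 52.3 CPM, at the lower end of their range. CDC25B was at 35.8, 38.6 and 36.5 CPM, inside it. The kinases PLK1, at 14.4, 16.2 and 13.8 CPM, AURKA, at 17.7, 16.4 and 19.9 CPM, and AURKB, at 6.82, 8.54 and 9.09 CPM, overlapped the untreated libraries. BIRC5 was at 9.89, 7.98 and 8.79 CPM and also overlapped them. BUB1 was at 11.4, 12.8 and 11.1 CPM, BUB3 at 164, 133 and 129 CPM and MAD2L1 at 56, 35.5 and 31.6 CPM. Only the first MAD2L1 library reached the lowest untreated one, whereas BUB1 lay below it except for its second library and BUB3 overlapped. CDC20 was at 19.2, 21.6 and 21.9 CPM, UBE2C at 17.9, 19.6 and 21.2 CPM and PTTG1 at 18.3, 16.2 and 17.7 CPM. These 3 genes of anaphase control overlapped the untreated libraries. CENPE was at 13.4, 7.08 and 6.11 CPM, wholly below them. KIF20A, at 10.5, 9.95 and 11.1 CPM, FOXM1, at 29.5, 18.8 and 31.9 CPM, and MKI67, at 23.2, 24.7 and 24.7 CPM, overlapped them.

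**Figure D3:**
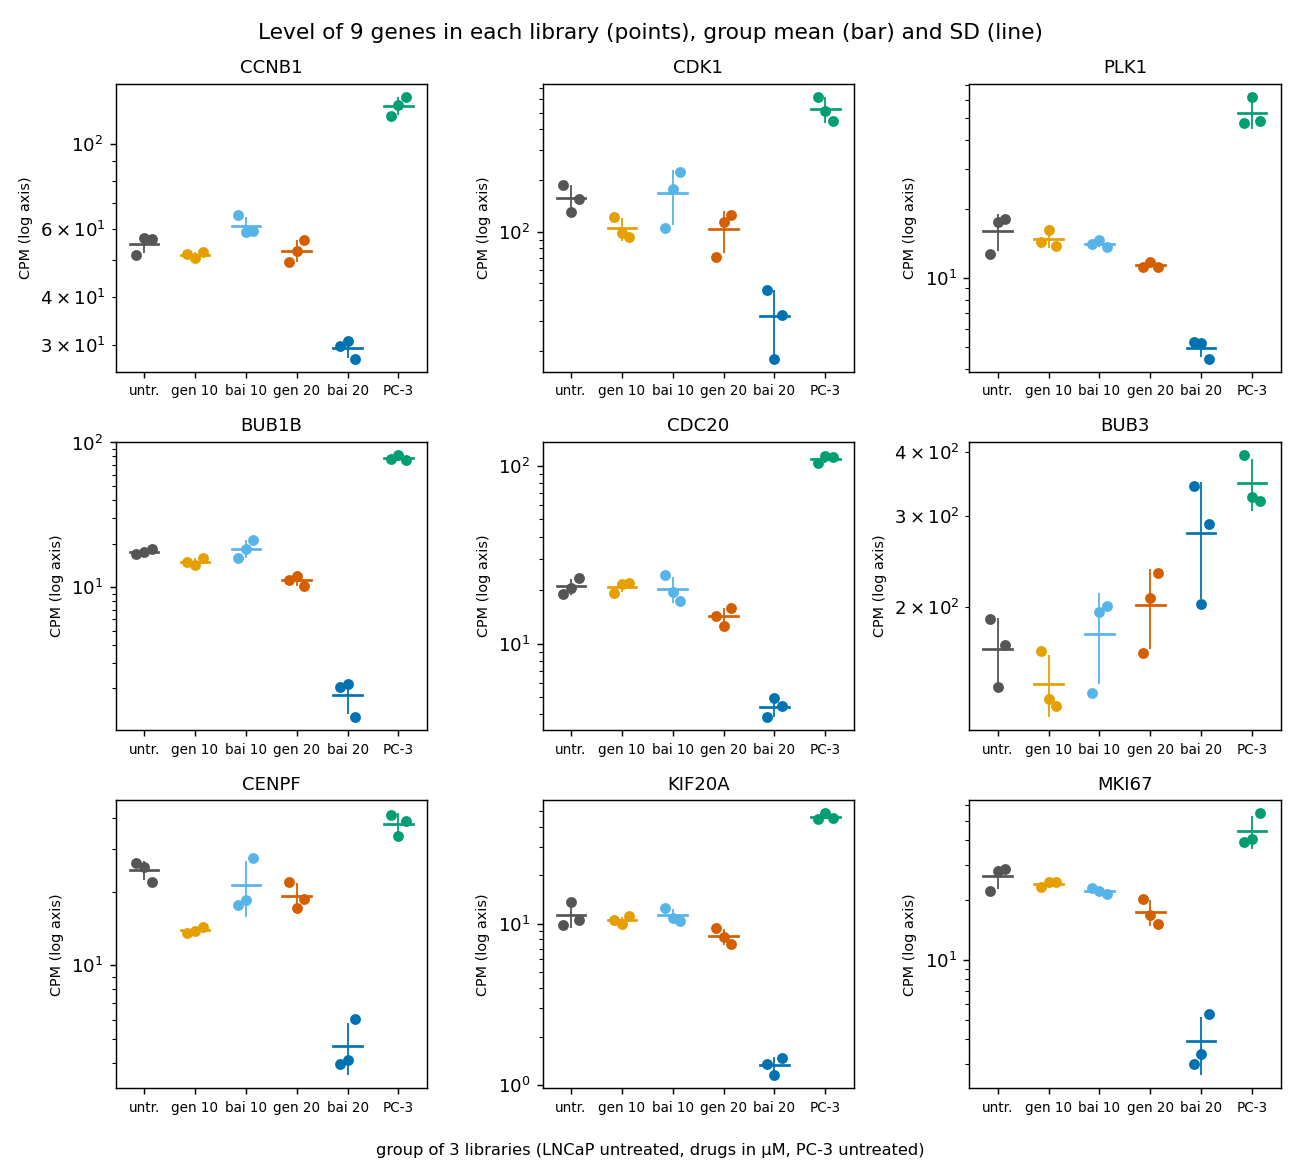
Each point is the CPM of 1 library on a log axis, each horizontal bar the group mean and each vertical line the SD, for 9 genes in the 5 LNCaP groups and in PC-3. The baicalein 20 µM points lie under the untreated ones for 8 genes and over them for BUB3, and the 3 points of baicalein at 10 µM scatter widely for CDK1.

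**Figure D4:**
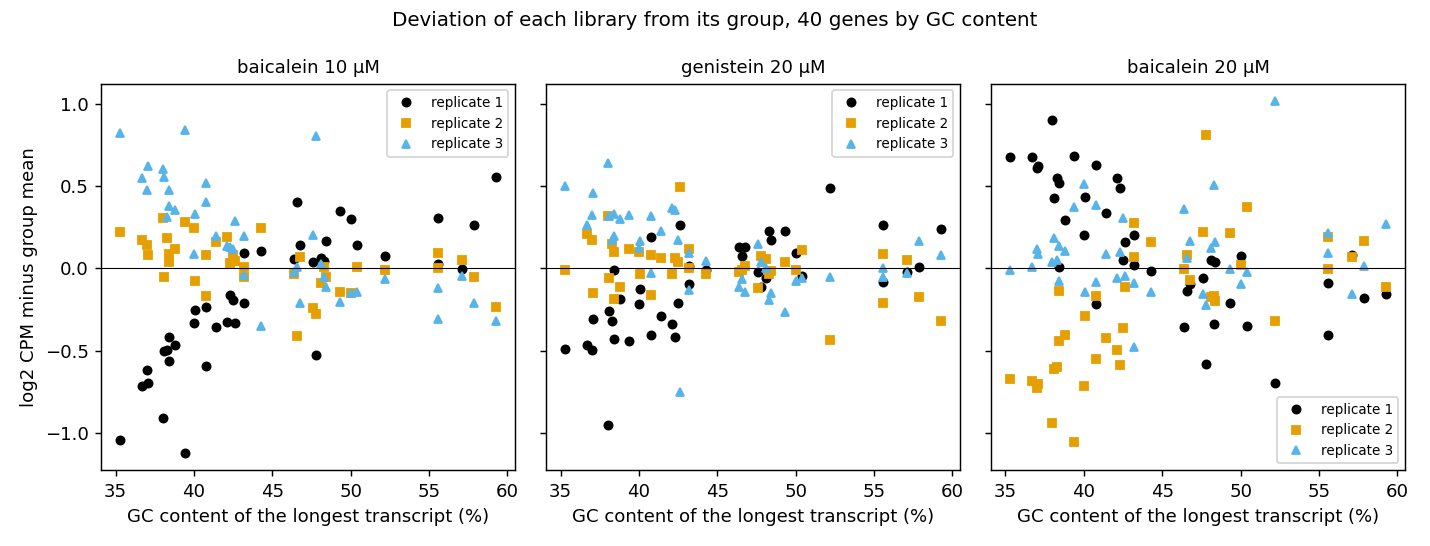
Each point is 1 of the 40 genes in 1 library: its log2 CPM minus the mean of its group (vertical axis) against the GC content of its longest transcript in percent, with 1 panel for each of 3 groups and a symbol for each replicate. In the first library with baicalein at 10 µM the members of low GC content lie below the group mean (median -0.482), and in the third above it (median 0.39).

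Between the doses, genistein at 20 µM against 10 µM gave 1 call, CDC20, which was lower (log2 fold change -0.55 ± 0.15 SE, adjusted p = 0.0242). Of all genes, 7.63% were called lower and 5.59% higher. The members' median was 0.04, made up of 0.23 for the 20 of lowest GC content and -0.15 for the other 20. The Pearson r with GC content was -0.524 over the 40 genes and -0.264 over all genes. The next smallest p-values were those of BUB1B (-0.43, adjusted p = 0.0726) and HMMR (1.00, adjusted p = 0.073). The CDC20 call was lost without the second or the third library of genistein at 10 µM, or without the first or the second at 20 µM, each leaving 0 calls. Without the 3 libraries that stood apart, 6 members were called higher at 20 µM and 1 lower, where 2156 of all 17450 genes were higher and 1735 lower. The share of members called higher was then near that of all genes. Baicalein at 20 µM against 10 µM gave 32 members lower and 2 higher (background 27.5% lower and 26.8% higher, 54.4% in all), with a median of -1.38. The largest falls were those of BUB1B (-3.33), KIF4A (-3.29) and KIF20A (-3.09). The 2 that rose were BUB3 (log2 fold change 0.65 ± 0.22 SE, adjusted p = 0.0214) and CENPA (log2 fold change 1.50 ± 0.53 SE, adjusted p = 0.0281), the latter with the uncertainty given above. BUB3 was not called without the first library at 10 µM (0.48, adjusted p = 0.091) or without the first (0.47, 0.0953) or the third at 20 µM (0.62, 0.0553). CENPA was not called without the first (1.25, 0.0979) or the second at 10 µM (1.33, 0.0922) or the second at 20 µM (0.98, 0.149).

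The isomers were compared with each other at both doses, 2 comparisons in all, each with p-values adjusted over all genes tested. At 10 µM, 0 members differed by edgeR's test (background 0.00589% in either direction), while 12 were lower with genistein at an unadjusted p under 0.05 (background 2.85%), DESeq2 called 0, and 10 lay wholly lower (background 3.89%). The smallest p-values were those of ASPM (genistein minus baicalein -1.17 (95% interval -1.94 to -0.40)), CENPF (-0.61 (95% interval -1.01 to -0.21)) and NUF2 (-0.71 (95% interval -1.21 to -0.21)). Members of low GC content had a median difference of -0.62 and the others of -0.03. Of all 17450 genes tested without the 3 libraries that stood apart, 83 were called lower with genistein and 32 higher. Among the members, 5 were then called lower with genistein: ANLN, ASPM, DLGAP5, HMMR and KIF11. All of these are of low GC content. That choice dropped the baicalein library lowest in such members and kept the highest, which by itself raises baicalein in them. With the GC and length trend removed, 0 members were called. So at 10 µM a difference was not called with all libraries, and the intervals for ASPM, CENPF and NUF2 allow one.

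At 20 µM, 29 of the 40 genes were higher with genistein than with baicalein and 0 lower (background 25.4% higher and 23.3% lower, 48.7% in all), with a median difference of 1.16. KIF4A differed most, at 11.5, 10.4 and 9.75 CPM with genistein and 0.966, 1.23 and 1.58 CPM with baicalein, a difference of 3.06 (95% interval 2.62 to 3.51) on the log2 scale (adjusted p = 2.11e-07). KIF20A differed by 2.66 (95% interval 2.27 to 3.04) and BUB1B by 2.60 (95% interval 2.22 to 2.98). No library of one compound reached the range of the other in these 3 genes. CENPE and TTK were among those called, but each lost its call without the second or the third library of either compound, CENPE at adjusted p-values of 0.0642 to 0.13 and TTK at 0.0865 to 0.146. The 11 members that were not called included CCNA2 (0.15 (95% interval -0.39 to 0.70)), CDC25B (-0.10 (95% interval -0.64 to 0.43)), BUB3 (-0.47 (95% interval -0.93 to -0.00)), MAD2L1 (0.86 (95% interval -0.20 to 1.91)), ECT2 (1.30 (95% interval 0.14 to 2.46)) and ASPM (0.87 (95% interval 0.08 to 1.66)). The intervals of MAD2L1, ECT2 and ASPM reach past 1 log2 unit, so a difference as large as that of many called members is within them.

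Whether the signed difference between the compounds changed with dose was tested as an interaction, the genistein-minus-baicalein difference at 20 µM minus that at 10 µM. It was positive and called for 30 of the 40 genes and negative for 0 (background 17.3% positive and 15.5% negative), with a median of 1.33. The 20 members of lowest GC content had a median of 2.00 and 14 calls, and the other 20 a median of 1.19 and 16 calls. The Pearson r with GC content was -0.377 over the 40 genes and -0.115 over all genes. With the GC and length trend removed, 32 members were positive and 0 negative, where 3877 of all 16985 genes were positive and 3218 negative. The largest values were those of KIF4A (3.15 ± 0.27 SE, adjusted p = 4.96e-06), DLGAP5 (3.00) and BUB1B (2.90). Without the 3 libraries that stood apart the interaction was positive for 28 and negative for 1, where 3181 of all 17450 genes were positive and 2613 negative.

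Untreated PC-3 had higher levels of 38 of the 40 genes than untreated LNCaP and lower levels of 0, by edgeR's quasi-likelihood test on the 6 untreated libraries (background 37% higher and 37.9% lower, 74.9% in all). The median log2 difference was 1.75 against -0.02 over the 17259 genes tested, and 37 members had all PC-3 libraries above all LNCaP ones (background 38.6%). The differences were largest for BIRC5, UBE2C and ANLN. BIRC5 was at 8.72, 9.84 and 10.5 CPM in LNCaP and at 90.3, 88.9 and 115 CPM in PC-3, 10.1-fold higher (log2 fold change 3.34 ± 0.15 SE, adjusted p = 2.81e-06). UBE2C was at 20.2, 21.7 and 22.4 CPM in LNCaP and at 175, 187 and 199 CPM in PC-3, 8.73-fold higher (log2 fold change 3.13 ± 0.11 SE, adjusted p = 1.09e-06). ANLN went from 32, 30.3 and 29 to 270, 249 and 199 CPM (log2 fold change 2.98 ± 0.15 SE, adjusted p = 3.67e-06). In each of the 3 every PC-3 library stood several-fold above every LNCaP library. Culture conditions, growth rate and line cannot be told apart in this comparison.

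By role, all 6 cyclins, CDK1 and CDC25 genes were higher in PC-3. CDK1 was at 619, 512 and 444 CPM there (1.73), CCNB1 at 118, 126 and 132 CPM (1.19) and CDC25B at 133, 154 and 137 CPM (2.19), log2 differences from LNCaP in brackets here and below. None of the 3 overlapped LNCaP. All 7 kinases and activators were higher, with AURKA at 114, 73 and 119.9 CPM (2.58), AURKB at 27.1, 21.1 and 26.2 CPM (1.43) and PLK1 at 47.6, 62.1 and 48.7 CPM (1.72). The second PC-3 library was the lowest for both Aurora kinases and the highest for PLK1. All 7 checkpoint and anaphase genes were higher, with CDC20 at 103, 113 and 112 CPM (2.39), PTTG1 at 114, 111 and 130.3 CPM (2.75) and BUB1 at 82.7, 86.9 and 70.7 CPM (2.59). MAD2L1 was at 278, 209 and 129 CPM (1.47) and spread more than these. BUB3 was at 394, 327 and 321 CPM (1.07), with no overlap.

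At the kinetochore, 5 of 6 genes were higher in PC-3. KNL1 was at 45.1, 41.8 and 31.3 CPM (1.37) and CENPF at 41.2, 33.8 and 39.1 CPM (0.63 ± 0.12 SE, adjusted p = 0.00257), the latter the smallest difference called. CENPE, at 18.2, 14.6 and 12.8 CPM, was not called and overlapped LNCaP (-0.52 (95% interval -1.11 to 0.06)); it was called lower in PC-3 without TMM scaling (-0.80, adjusted p = 0.0129) and without the second untreated LNCaP library (-0.72, adjusted p = 0.0214). Among the motors, spindle and cytokinesis genes 11 of 12 were higher, KIF20A at 44.8, 48.2 and 45.4 CPM (2.02). ASPM, at 16, 11.9 and 11.1 CPM, had nearly the LNCaP values (0.01 (95% interval -0.50 to 0.51)). HMMR was just past the threshold (0.67 ± 0.22 SE, adjusted p = 0.0258) and was not called in 6 alternatives, among them without the second (0.58, adjusted p = 0.0847) or the third LNCaP library (0.64, 0.0729) and without the first (0.50, 0.0628) or the second PC-3 library (0.66, 0.0595). PRC1 lost its call without the first LNCaP library (1.04, 0.0516). FOXM1 was at 68.6, 127 and 127 CPM (1.77) and MKI67 at 39.3, 40.5 and 54.6 CPM (0.76). The first FOXM1 library was the lowest of the PC-3 ones and still above LNCaP.

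**Figure D5:**
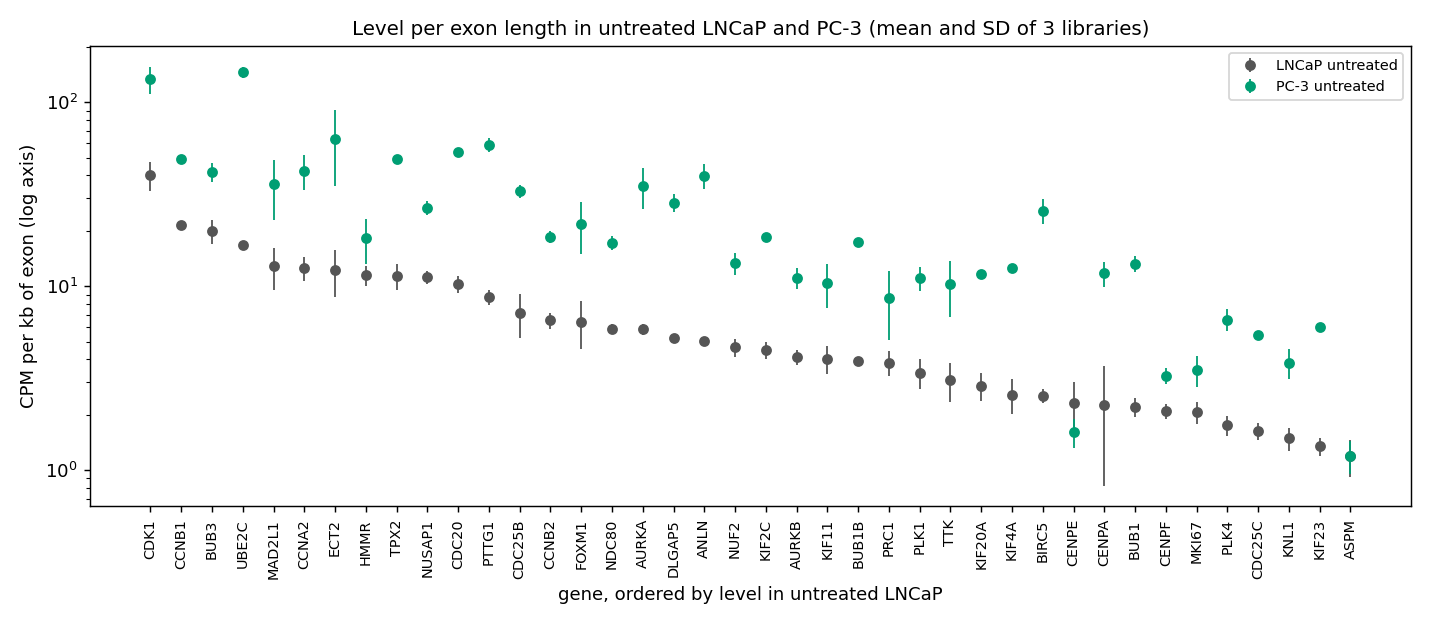
Points give the mean level of each of the 40 genes in CPM per kb of exon, on a log axis, in untreated LNCaP and untreated PC-3. Vertical lines give the SD of 3 libraries, and genes are ordered by their level in untreated LNCaP. The PC-3 points lie above the LNCaP ones for most genes. ASPM is level at 1.19 CPM per kb in both lines, and CENPE is lower in PC-3, at 1.61 against 2.31.

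Among the other pathway genes, read against a background of 37% higher and 37.9% lower, the centromere, spindle, kinase and condensin lists were mostly higher in PC-3. The list of the anaphase-promoting complex (median 0.06) was near the background. That of DREAM, MuvB and E2F regulators (median 0.26) was near it in the share called higher and below it in the share called lower. Counts higher and lower were 20 and 2 of 27 centromere and kinetochore genes, 20 and 3 of 28 spindle and cytokinesis genes, 11 and 0 of 14 kinases and CDK1 regulators, 6 and 0 of 8 condensin subunits, 9 and 4 of 18 checkpoint and cohesion genes, 7 and 5 of 17 genes of the anaphase-promoting complex, and 11 and 5 of 25 DREAM, MuvB and E2F regulators. CENPI (2.77), OIP5 (2.65), the kinesin gene KIFC1 (2.56), the abscission gene CEP55 (2.78), CKS1B (2.91), MELK (1.94), NCAPH (2.05), NCAPG2 (1.53), the checkpoint ATPase gene TRIP13 (2.13), the sororin gene CDCA5 (2.55), ANAPC11 (1.91), UBE2S (1.44) and LIN9, a MuvB subunit (2.53), were higher. MYBL2 was at 185 ± 5.54 CPM in PC-3 against 35.9 ± 0.753 in LNCaP (2.37). The cohesin genes STAG2 (-1.57) and SMC3 (-1.21), the spindle-pole gene NUMA1 (-2.24), KIF22 (-0.30), CENPN (-1.45), CENPC (-0.64), ANAPC2 (-1.29), ANAPC16 (-0.80) and CDKN1A (-1.36) were lower.

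The counting leaves some members uncertain. The library kit does not mark strand as far as its name tells and the strand setting of the counting is not given in the sources used here, so reads from genes on opposite strands cannot be told apart. A total of 10 members have a locus that overlaps a gene with more than 10% of their own counts. Opposite-strand overlaps were those of KIF4A with PDZD11, KIF20A with BRD8 and CDC23, CDC25C with FAM53C, FOXM1 with RHNO1 and ITFG2, CCNA2 with EXOSC9, ANLN with MATCAP2, NUF2 with RGS5, and NUSAP1 with OIP5. On the same strand, CENPA overlaps SLC35F6, NUSAP1 overlaps OIP5-AS1, and PRC1 and NUSAP1 each overlap a gene without a symbol. Named pseudogenes were listed for 11 members, of which AURKAP1, with 276 counts over all libraries, held the most.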

How the data were processed

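Gene counts for 18 poly(A) RNA-seq libraries (NEBNext Ultra kit) were used as the authors deposited them: whole reads per gene, not normalized. The tools named per the submitters' processing notes are featureCounts 1.6.4, STAR 2.7.6a, fastp and DESeq2 1.20.0, with the build GRCh38; the strand setting and the annotation release are not given in the sources used here. The 18 FPKM columns (baicalein at 20 µM appears in 6 of their headers, 10 µM in 0) and the authors' 13 comparisons were left out. Counts were filtered with filterByExpr, scaled by TMM and tested in edgeR 4.0.16 (R 4.3.3, limma 3.58.1) by robust quasi-likelihood F tests, with Benjamini-Hochberg adjustment over 16985 genes (15 LNCaP libraries in 1 fit) or 17259 genes (6 untreated libraries), called at an adjusted p under 0.05; the script was tested on simulated data. Libraries of a group differed by more than counting noise (chi-square per degree of freedom 12.01 to 97.59), so no pair was merged as a repeat deposit of 1 library; this does not show that they came from separate cultures. Alternatives were DESeq2 1.42.0, no filter, no TMM, no mitochondrial genes, only the groups compared, a replicate block, GC and length trends removed, and leaving out libraries. Exon length and GC content came from GENCODE 29, which matched 58228 genes with 99.31% of the counts, and promoter sequences from RefSeq (GRCh38.p14).

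The members and gene lists were chosen with earlier results of these data known. The text gives values in every library for 20 set members. In each comparison it also names the 3 called members with the largest rise and fall (those that reach 5 CPM in the mean of one group), called members that moved against the majority, and, with fewer than 3 calls, the 3 with the smallest p. Of each other pathway list it names up to 2 called genes a direction with the smallest adjusted p. CPM of a low gene rests on few counts, and 3 libraries a group limit precision.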

Additional observations from a re-analysis of the deposited data

Results flagged for a closer look

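The step from 10 to 20 µM differed between the 2 compounds for 30 of the 40 genes, by the interaction in edgeR's quasi-likelihood test (adjusted p under 0.05, 6 libraries a compound). Each value is the log2 change of genistein over this step minus that of baicalein, so a positive one means that the gene went lower with baicalein than with genistein. Among the motors, spindle and cytokinesis genes, it was KIF4A 3.15, DLGAP5 3.00, KIF20A 2.75, ECT2 2.54, HMMR 2.27, ASPM 2.04, ANLN 1.26, KIF11 1.16 and KIF2C 0.99. Among the checkpoint and anaphase genes, it was BUB1B 2.90, BUB1 1.96, CDC20 1.65, UBE2C 1.21 and PTTG1 1.18. Among the kinetochore genes, it was CENPF 2.65, CENPE 2.60, KNL1 2.51, NUF2 2.47 and NDC80 2.11. Among the kinases and spindle activators, it was TPX2 2.29, TTK 1.69, BIRC5 1.40, AURKB 1.25 and PLK1 1.13. Among the cyclins, CDK1 and CDC25 phosphatases, it was CDK1 2.39, CCNB2 1.17, CCNB1 1.09 and CDC25C 0.65. For the proliferation marker MKI67 it was 2.04 and for the transcription factor FOXM1 1.25. Over all 40 genes, members of low GC content had a median of 2.00 and the others of 1.19. For some members both doses made up the value: genistein minus baicalein was -1.26 at 10 µM and 1.34 at 20 µM for CENPE, and -1.24 and 1.30 for ECT2, neither of the 10 µM differences being called. CDC25C, BIRC5 and KIF11 missed the threshold in 17, 11 and 10 of the alternative analyses, where their values stayed positive, at 0.56 to 0.78 for CDC25C, 0.88 to 1.45 for BIRC5 and 0.91 or more for KIF11.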

How the results depend on the processing

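Of 6160 gene results recomputed, 5885 stayed on the same side of the threshold, 127 lost a call, 148 gained one and 0 called ones reversed. The direction of results called in neither fit was not compared. The number of members called with genistein at 20 µM (4) was 9 with DESeq2, where 1384 of all 19702 genes were higher and 1879 lower. Below, brackets give all genes called higher and lower in the same setting. There were 7 without TMM (628 and 1739 of 16985) and 7 without mitochondrially encoded genes (1076 and 1685 of 16807). There were 14 with GC and length trends removed (2367 and 1778 of 16985). With the replicate block and these trends removed there were 13 (2141 and 1629 of 16985). Genistein at 10 µM (0) gave 2 with DESeq2 (58 and 71 of 16843) and 2 with block and trends (11 and 22 of 16985). It gave 1 with trends removed (21 and 35 of 16985). Genistein at 20 against 10 µM (1) gave 4 with DESeq2 (1177 and 1704 of 18271), 0 with no filter (872 and 751 of 36917) and 3 without TMM (590 and 1716 of 16985). Without mitochondrially encoded genes it gave 2 (850 and 1536 of 16807). With only the groups compared it gave 8, 4 each way (1247 and 1762 of 15937). It gave 5 with trends removed (2066 and 1500 of 16985) and 3 with block and trends (1793 and 1341 of 16985). Without the 3 libraries that stood apart, chosen after seeing the data, genistein at 10 µM gave 1 (12 and 40 of 17450), though none of the 3 is in that comparison. Genistein against baicalein at 10 µM gave 5 (32 and 83 of 17450) and the genistein dose step 7. In the dose step CDC20 was still lower and 6 others were called higher, where 2156 of all 17450 genes were higher and 1735 lower. The libraries left out include the genistein 20 µM library lowest in members of low GC content. The members' median for this step was 0.04 with all libraries and 0.10 without the 3. The causes were not tested. Leaving out 1 library gave 1 to 5 calls with genistein at 20 µM, 0 to 1 for its dose step, 29 to 35 with baicalein at 20 µM, 32 to 36 for its dose step, 27 to 32 between the compounds at 20 µM, 26 to 30 for the interaction, 37 to 38 for PC-3 and 0 for the 3 comparisons at 10 µM. Without TMM the median of all genes moved from 0.04 to -0.25 with baicalein at 20 µM and to -0.31 in PC-3. All genes called higher and lower were then 3286 and 6215 with baicalein (4992 and 4716 with TMM), 628 and 1739 with genistein at 20 µM (1412 and 1379), 5049 and 3020 between the compounds at 20 µM (4316 and 3962), and 5282 and 7666 in PC-3 (6387 and 6537). The members then split 0 higher and 35 lower with baicalein, and 37 and 1 in PC-3. Replicate numbers did not pair the libraries (45 same-number pairs, r -0.399 to 0.339, 11 over 0.1), and 5 of 15 libraries matched their own number best. The replicate block gave 3 calls with genistein at 20 µM (1068 and 1125 of all 16985 genes higher and lower). It gave 33 with baicalein (4776 and 4563) and 28 between them (4092 and 3690). With genistein at 20 µM, PLK1 lost its call in 8 alternatives, MKI67 in 6, CDC20 in 2 and BUB1B in 0.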
